A study of Mus musculus with 2 samples.

Results

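The PDZ-LIM and LIM-only muscle proteins were taken as 10 genes: Pdlim1, Pdlim2, Pdlim3, Pdlim4, Pdlim5, Pdlim7, Ldb3, Csrp1, Csrp2 and Fhl2. They were measured by all non-control probes whose gene name in the scanner files was one of these symbols, which gave 15 probes for the 10 genes, of 39429 probes and 31870 genes on the array. Of the 10 genes, 7 had 1 probe, Ldb3 had 2 probes, and Pdlim5 and Pdlim7 had 3 probes each. RNA of whole dissected ureters of NMRI mouse embryos at E14.5 (the embryonic stage in days) was compared on 2 two-colour arrays, each with 200 ng of total RNA per channel. The mutants, labelled Smad4cKO, had the genotype Tbx18(cre/+);Smad4(fl/fl), and the controls Tbx18(+/+);Smad4(fl/+), so the controls also carried a floxed Smad4 allele. Cre was made from the Tbx18 locus and was therefore limited to cells that express or once expressed Tbx18, the mesenchyme around the ureteric epithelium, while whole ureters also hold epithelium, vessels and nerves. Effects of the Cre allele and of the loss of Smad4 cannot be told apart. Array 1 held a female pair with the labelled Smad4cKO RNA in green and array 2 a male pair with the labelled Smad4cKO RNA in red, so that dye and sex changed together. The labels do not give the number of embryos or litters behind each RNA, and n is 2 arrays throughout.

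PDZ-LIM proteins hold a PDZ domain, which binds the ends of partner proteins such as alpha-actinin, and zinc-binding LIM domains, which dock further partners on the actin cytoskeleton. Pdlim1 to Pdlim4 form the ALP branch with a single LIM domain, and Pdlim5, Pdlim7 and Ldb3 form the Enigma branch with several. Csrp1 and Csrp2 (the cysteine-rich proteins) and Fhl2 consist of LIM domains without a PDZ domain. In muscle these proteins sit at the Z-lines of striated fibres or at the dense bodies and stress fibres of smooth muscle, and some also enter the nucleus, where they act with the transcription factor SRF. The comparison addresses which of these genes differ in level when Smad4, the shared partner of the BMP and TGFB signalling SMADs, is deleted in the mesenchyme that forms the ureter's smooth muscle coat.

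The 60-base array probes are shown for the members with the 2 mean ratios largest in size and for 2 members whose probes differed among themselves, 5′ to 3′ and on the transcript's strand, with their positions on mouse build mm9 as the scanner files give them. Capitals mark AATAAA, the usual polyadenylation signal near a transcript's end, and in a probe of Pdlim7 the letters GAGACAGGG.
Pdlim3, chr8:47004658-47004717, plus strand: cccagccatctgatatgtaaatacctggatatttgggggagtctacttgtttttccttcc
Csrp1, chr1:137648747-137648806, plus strand: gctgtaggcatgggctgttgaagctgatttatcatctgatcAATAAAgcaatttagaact
Pdlim5, chr3:141966207-141966266, minus strand: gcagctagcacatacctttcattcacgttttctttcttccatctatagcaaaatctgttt
Pdlim5, chr3:141966292-141966351, minus strand: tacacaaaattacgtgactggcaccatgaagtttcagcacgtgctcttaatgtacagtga
Pdlim5, chr3:141904328-141904387, minus strand: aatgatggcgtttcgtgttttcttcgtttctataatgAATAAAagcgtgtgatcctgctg
Pdlim7, chr13:55599777-55599836, minus strand: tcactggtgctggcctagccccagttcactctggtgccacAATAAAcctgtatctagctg
Pdlim7, chr13:55598956-55599015, minus strand: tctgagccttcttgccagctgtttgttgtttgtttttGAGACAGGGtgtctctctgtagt
Pdlim7, chr13:55610290-55610349, minus strand: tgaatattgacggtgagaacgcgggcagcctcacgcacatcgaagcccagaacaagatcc
AATAAA was found on the probe's strand in 4 of the 15 member probes, and in 12.6% of all 39429 probes. Those 4 were the probes of Csrp1 and Pdlim4, 1 probe of Pdlim5 and the brightest probe of Pdlim7. GAGACAGGG, letters of the kind found in the mouse B1 repeat, was found on either strand in 0.137% of all probes. Which exon or untranslated region each probe lies in was not annotated here.

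All 15 member probes were well above background in all 4 channels, and 0 were saturated or marked as outliers. The mean signal was between 24.6 and 1290 times the local background for the probes of 9 genes, whereas the Ldb3 probes stood at only 2.77 to 3.93 times background. Across the array, 70.3% and 69% of spots were well above background in the channels labelled Smad4cKO of arrays 1 and 2, against 68.3% and 70.1% in the channels labelled control. Of the tissue's markers, 5 of 5 ureteric mesenchyme genes and 13 of 14 smooth muscle genes passed the filter on dim probes, which asked that at least 1 labelled group be well above background in its channel of each array. The targeted gene did not settle the direction: the brightest Smad4 probe gave -0.69 in the female pair and -0.14 in the male pair (limma adjusted p = 1). Averaged over its tested probes, Smad4 was dimmer in both pairs, at -0.5 and -0.315 (limma adjusted p = 0.623). Its probes may lie outside the deleted part. Tbx18, which carries the Cre allele, gave 0.07 and 0.81 (limma adjusted p = 1).

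All ratios are labelled Smad4cKO over labelled control, as the dye labels give them. The authors' deposited table of signed folds runs the opposite way to what its sample titles, which name Smad4cKO before control, would give: Pdlim3 stands there at 1.44 and 1.77, and Csrp1 at -1.29 and -1.72. Should the labels of both arrays be swapped, each direction given here would turn round with its size unchanged. Because this is RNA of a whole tissue, fewer cells of a type and less RNA per cell cannot be told apart.

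No member passed limma over all 21237 genes tested, and none was at least 1.5-fold apart in the same direction on both arrays. Pdlim3 was the member dimmest in the channels labelled Smad4cKO and Csrp1 the brightest, and the other 8 members had mean log2 ratios between -0.27 and 0.24. Of the 10 members, 2 (Csrp1 and Csrp2) were brighter on both arrays, 2 (Pdlim3 and Pdlim7) were dimmer on both, and 6 changed sign between the arrays. Over all genes tested, 19.9% were brighter on both arrays, 19.8% dimmer on both and 60.3% changed sign, which is close to the split of the members. Which members kept 1 sign depended on the normalization: with median centring in place of loess, Pdlim5, Pdlim7, Csrp1, Csrp2 and Fhl2 changed sign between the arrays, as did 68.5% of all genes, and only 2 of these 5 (Pdlim5 and Fhl2) also did so after loess. Limma called 0% of all genes brighter and 0.00471% dimmer, and the 1.5-fold rule was passed by 0.49% of genes brighter and 0.523% dimmer. At an unadjusted p under 0.05, limma picked 1 member brighter (Csrp1) and 1 dimmer (Pdlim3), against 2.14% and 2.97% of all genes. The median of the members' mean log2 ratios was 0.136, with 0.044 in the female pair and 0.135 in the male pair, against a median of 0.0050 over all genes tested.

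**Figure D1:**
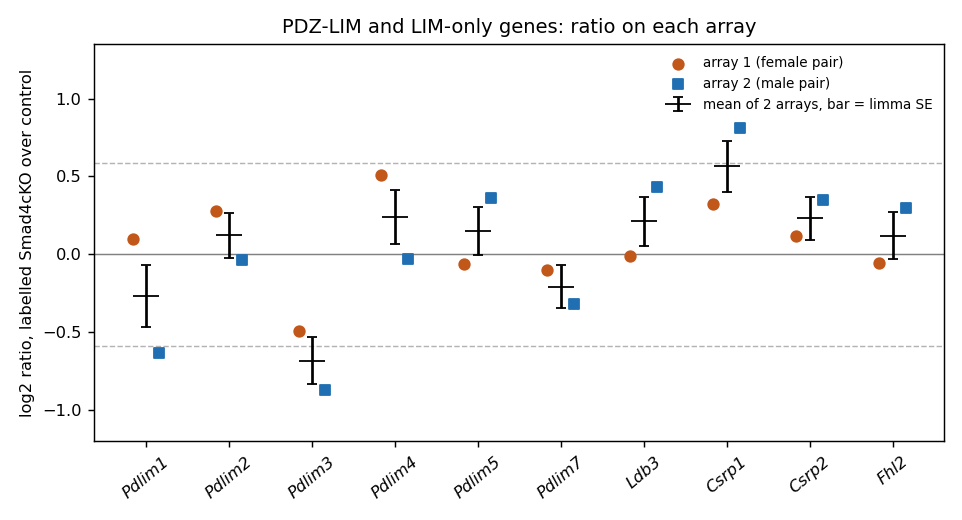
Log2 ratio of labelled Smad4cKO over labelled control for the brightest tested probe of each member, on array 1 (circles) and array 2 (squares), with the mean of both arrays and limma's SE as bars (n = 2 arrays). Dashed lines mark 1.5-fold, and Pdlim3 at -0.68 and Csrp1 at 0.57 have the largest means, each with 1 array inside the dashed lines.

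In the ALP branch, Pdlim3 encodes the actinin-associated LIM protein, which binds alpha-actinin at the Z-line and is known mainly from skeletal and heart muscle. Its processed signal was 7079 and 7606 on arrays 1 and 2 in the channels labelled Smad4cKO, against 10240 and 13540 in the channels labelled control. Both labelled Smad4cKO channels lay below both labelled control channels. Its log2 ratio was -0.49 in the female pair and -0.87 in the male pair, with a mean of -0.68 (SE 0.15, n = 2, limma adjusted p = 0.323), or 1.61-fold dimmer. Pdlim3 missed the 1.5-fold rule on array 1 alone. Counted by the smaller in size of a gene's 2 ratios, 0.81% of all genes tested were at least as far dimmer on both arrays. The larger ratio did not enter this share. The call was made in 1 of 11 alternatives that kept both arrays: with a robust empirical Bayes step that follows intensity the limma adjusted p was 0.0143, and over the alternatives it ran from 0.0143 to 1. With that robust step limma called 407 of all 21237 genes dimmer, against 1 without it.

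The other ALP members changed sign between the arrays after loess but not with median centring. Pdlim1 encodes a protein that links alpha-actinin to stress fibres, and it gave 14580 and 14090 in the channels labelled Smad4cKO, against 14150 and 21550 in those labelled control. Its log2 ratio was 0.10 in the female pair and -0.64 in the male pair, with a mean of -0.27 (SE 0.20, n = 2, limma adjusted p = 1), while median centring gave -0.34 and -0.15. The Pdlim1 probe was also annotated to predicted transcripts outside the gene's own RefSeq entry, so its signal may be shared. Pdlim2, whose protein is known for promoting the breakdown of the transcription factors it binds, gave 9078 and 9014 in the channels labelled Smad4cKO, against 7456 and 9449 in those labelled control. Its ratios of 0.28 and -0.03 averaged 0.12 (SE 0.14, n = 2, limma adjusted p = 1). Pdlim4, which encodes the reversion-induced LIM protein of stress fibres, gave 11510 and 11440 in the channels labelled Smad4cKO, against 8314 and 11330 in those labelled control. Its log2 ratio was 0.51 in the female pair and -0.03 in the male pair, with a mean of 0.24 (SE 0.17, n = 2, limma adjusted p = 1), so array 1 carried its mean.

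**Figure D2:**
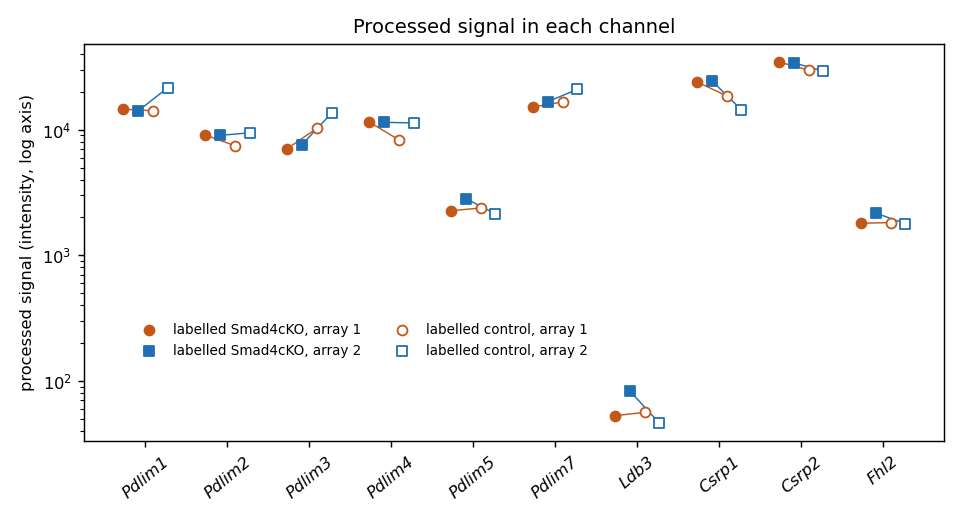
Processed signal (intensity, log axis) of the probe that stands for each member in the channels labelled Smad4cKO (filled) and labelled control (open), with lines joining the channels of 1 array. For Pdlim3 the filled symbols (7079 and 7606) lie below the open ones (10240 and 13540), for Csrp1 they lie above (23960 and 24510 against 18620 and 14390), and probes of different genes are not comparable in level.

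In the Enigma branch the mean log2 ratios after loess were -0.21 for Pdlim7, 0.15 for Pdlim5 and 0.21 for Ldb3, and no gene passed limma. Pdlim7 encodes Enigma, also known as LIM mineralization protein, which is known for osteogenic activity and for binding a ubiquitin ligase that turns over SMADs. Its brightest probe gave 15190 and 16740 in the channels labelled Smad4cKO, against 16640 and 20980 in those labelled control, so the ranges overlapped. The log2 ratio was -0.10 and -0.32 (mean -0.21, SE 0.14, n = 2, limma adjusted p = 1). By the smaller of the 2 ratios in size, 7.86% of all genes were at least as far dimmer on both arrays. With median centring Pdlim7 gave -0.57 and 0.19, so the shared direction was lost. A second Pdlim7 probe, 10.5 kb away and annotated to another transcript, gave similar values of -0.18 and -0.22. The probe with GAGACAGGG, 0.821 kb from the brightest, gave -0.21 on array 1 and 0.13 on array 2. The Pdlim7 probes therefore did not share 1 sign pattern, and the part of the repeat-like letters in this was not tested.

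Pdlim5 encodes the Enigma homologue, whose LIM domains bind protein kinase C. Its brightest probe had 2265 and 2825 in the channels labelled Smad4cKO, against 2378 and 2135 in those labelled control, and its ratios of -0.06 and 0.36 differed in sign (mean 0.15, SE 0.16, n = 2, limma adjusted p = 1). The neighbouring probe, 85 bases away and annotated to some of the same transcripts, gave 0.17 and 0.27. The third probe lies 61.9 kb away and is annotated to another transcript, and it gave 0.24 on each array, with 2377 and 2844 in the channels labelled Smad4cKO against 2052 and 2317 in those labelled control. Thus 2 of the 3 Pdlim5 probes were brighter on both arrays, while the brightest, which stands for the gene, was not. The choice was close: by processed signal the third probe was higher in every channel except the labelled control of array 1. The sign change of Pdlim5 after loess rests on this choice of probe. The mean over all 3 probes gave 0.20.

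Ldb3 encodes ZASP, also called Cypher, a Z-line protein of striated muscle. Its brightest probe had 52.8 and 83.0 in the channels labelled Smad4cKO, against 56.1 and 45.9 in those labelled control, all near background. Its ratios were -0.0090 and 0.43 (mean 0.21, SE 0.16, n = 2, limma adjusted p = 1), and from processed signals array 2 alone gave 0.85. The other Ldb3 probe, 34.5 kb away and annotated to another transcript, gave 0.06 and 0.05. The mean of the brightest Ldb3 probe was 0.38 from processed signals and 0.39 from the authors' deposited table, while the mean over both probes was 0.13. Limma made no call of Ldb3 in the 11 alternatives that kept both arrays.

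**Figure D3:**
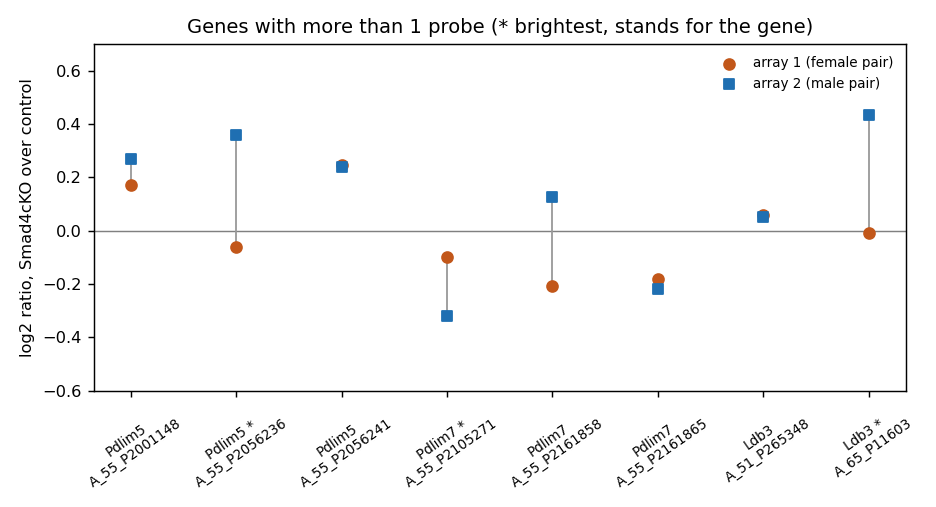
Log2 ratios on array 1 (circles) and array 2 (squares) for the probes of the 3 members with more than 1 probe, with a line joining the arrays and a star on the probe that stands for the gene. The starred Pdlim5 probe spans -0.06 to 0.36 while the other Pdlim5 probes lie between 0.17 and 0.27.

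Among the LIM-only genes, Csrp1 was brighter in the channels labelled Smad4cKO by 1.48-fold. Csrp1 encodes a cysteine-rich protein abundant in smooth muscle, which binds alpha-actinin and zyxin. Its processed signal was 23960 and 24510 in the channels labelled Smad4cKO, against 18620 and 14390 in those labelled control, with no overlap between the labelled groups. The log2 ratio was 0.32 in the female pair and 0.81 in the male pair, with a mean of 0.57 (SE 0.16, n = 2, limma adjusted p = 0.565). By the smaller of the 2 ratios, 1.42% of all genes were at least as far brighter on both arrays. With median centring in place of loess, array 1 gave -0.25 and array 2 gave 1.32, so the shared direction was lost. In the other 10 alternatives that kept both arrays Csrp1 was brighter on both. Several of these changed only the filter, the outlier spots, the averaging of probes or the test, and left its ratios as they were.

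Csrp2, known as a cysteine-rich protein of vascular smooth muscle, had 34580 and 34030 in the channels labelled Smad4cKO, against 29850 and 29320 in those labelled control. The groups did not overlap, but the difference was small: 0.12 in the female pair and 0.35 in the male pair, with a mean of 0.23 or 1.17-fold (SE 0.14, n = 2, limma adjusted p = 1). With median centring Csrp2 gave -0.61 and 1.04, so its shared direction was lost as well. Fhl2, a cofactor that binds SRF and other transcription factors, had 1798 and 2165 in the channels labelled Smad4cKO, against 1821 and 1786 in those labelled control. Its ratios of -0.06 and 0.30 differed in sign (mean 0.12, SE 0.15, n = 2, limma adjusted p = 1). Counting the processed signals of the probe that stands for each gene, 3 members were brighter without overlap (Csrp1, Csrp2 and Pdlim4) and 1 was dimmer (Pdlim3), against 8.65% and 8.66% of all genes tested. Pdlim4 was counted by a small margin, 11440 against 11330 on array 2, where its ratio after loess was -0.03, so that it changed sign between the arrays. Processed signals were dye-normalized within an array and not between arrays.

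The scanner software also gives a p-value for each spot's ratio, which covers the error of that spot and not the spread between RNAs. For Pdlim3 it was 0.0112 on array 1 and 0.000134 on array 2, and for Csrp1 0.0786 and 0.000374. Pdlim1 had 0.833 and 0.00378, and Pdlim4 had 0.0244 and 0.944. The brightest Ldb3 probe had 0.79 and 0.0107, so each of these 3 genes was under 0.05 on only 1 array. With the software's p under 0.05 and 1 direction on both arrays, 0 members were brighter and 1 was dimmer (Pdlim3), against 1.22% and 1.56% of all genes tested.

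**Figure D4:**
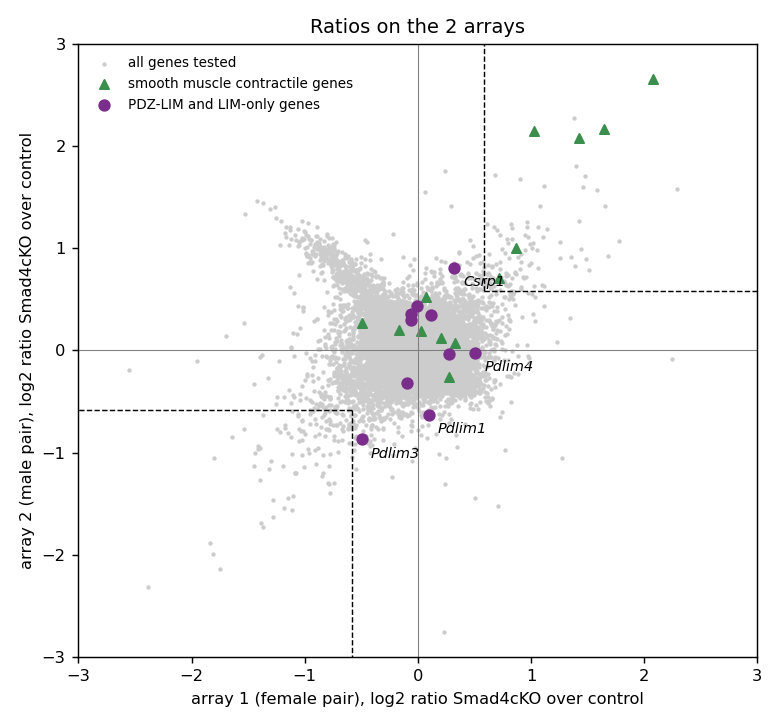
Log2 ratio on array 1 (x axis) against array 2 (y axis) for all 21237 genes tested (grey), the 13 tested smooth muscle contractile genes (triangles) and the 10 members (circles), with dashed corners at 1.5-fold on both arrays. Pdlim3 and Csrp1 pass 1.5-fold on array 2 but not on array 1, and stay outside the corners, while in the upper right corner 6 smooth muscle genes lie.

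The members were set beside smooth muscle contractile genes measured in the same RNAs. Of 13 such genes tested, 10 were brighter on both arrays, 0 were dimmer on both and 3 changed sign, with a median of 0.30 (0.33 in the female and 0.53 in the male pair), and 6 passed the 1.5-fold rule. Limma over all genes called 0 of them (6 brighter and 0 dimmer at an unadjusted p under 0.05), the smallest adjusted p being 0.0657. Myh11, a myosin heavy chain gene of smooth muscle, gave 2.37 (SE 0.18, n = 2), Cnn1, calponin, 1.91 (SE 0.17), Actg2, an enteric smooth muscle actin, 1.75 (SE 0.19), and Acta2, the alpha smooth muscle actin, 1.59 (SE 0.26). Csrp1, with a mean of 0.57, thus had the sign of the genes just named at a smaller size, but lay above the list's median of 0.30. Pdlim3 had the opposite sign to the genes just named. This list was chosen with results of these data known, and the difference from the members was not tested.

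Other genes with LIM domains that act at the cytoskeleton were measured in the same RNAs. Of 39 such genes 35 were tested, with mean log2 ratios from -0.37 to 0.73: 12 were brighter on both arrays, 8 were dimmer on both and 15 changed sign, with a median of 0.04. Limma called 0 (2 brighter and 2 dimmer at an unadjusted p under 0.05), and the 1.5-fold rule was passed by 1 brighter gene and 0 dimmer genes. The gene that passed was Lmcd1, which encodes a LIM protein known to restrain GATA factors, with 0.82 on array 1 and 0.65 on array 2 (SE 0.13, limma adjusted p = 0.222). Fhl1, a muscle relative of Fhl2, gave 0.41 and 0.60 (SE 0.14, limma adjusted p = 0.497). Tgfb1i1, which encodes the focal adhesion protein Hic-5, gave 0.19 and 0.47, and Micall1, of endosomal traffic, 0.14 and 0.49. On the dimmer side were Lims2, which encodes an integrin-linked kinase partner (-0.38 and -0.34), Tes, of focal adhesions (-0.47 and -0.27), Ablim1, an actin-binding LIM protein (-0.18 and -0.21), and Lmo7 (-0.17 and -0.20). The striated muscle relative Csrp3 was not tested because its probes missed the filter on dim probes.

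**Figure D5:**
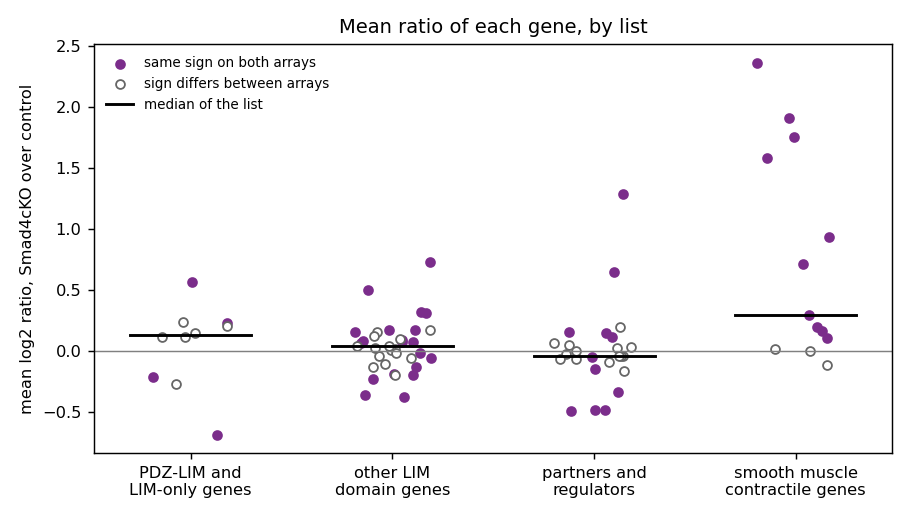
Mean log2 ratio of each tested gene in 4 lists (filled, same sign on both arrays, and open, sign differs), with a bar at each list's median (0.136 for the members, 0.042 for other LIM domain genes, -0.035 for partners and regulators, and 0.30 for smooth muscle contractile genes). Points are spread sideways only to be visible.

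Binding partners and regulators of the members were also measured. Of 28 genes, 25 were tested: 5 were brighter on both arrays, 6 were dimmer on both and 14 changed sign, with a median of -0.035. Limma called 0 (2 brighter and 2 dimmer at an unadjusted p under 0.05), and the 1.5-fold rule was passed by 1 brighter gene and 0 dimmer genes. That gene was Myocd, the coactivator that drives contractile genes with SRF, at 0.90 on array 1 and 1.68 on array 2 (SE 0.21, limma adjusted p = 0.176). Srf itself gave -0.20 and 0.20, and its other coactivators Mrtfa (-0.16 and 0.04) and Mrtfb (-0.19 and 0.12) changed sign; these were chosen after their values were seen. Among the alpha-actinins, the partners of the PDZ domain, the striated muscle form Actn2 gave -0.56 and -0.39 (SE 0.14, limma adjusted p = 0.534) and Actn3 0.86 and 0.45 (SE 0.15, limma adjusted p = 0.381). The Actn2 signals were low, 75.45 and 49.06 in the channels labelled Smad4cKO against 125 and 79.73 in those labelled control. Of the forms of non-striated cells, Actn1 gave -0.13 and -0.17, and Actn4, chosen after its values were seen, 0.32 and -0.36. The protein kinase C genes Prkca (0.14 and 0.16) and Prkcb (0.15 and 0.07) were slightly brighter (limma unadjusted p = 0.303 and 0.417). Prkce, named after its values were seen, gave -0.105 and 0.026. Itga7, a muscle laminin receptor gene (-0.52 and -0.15), and Synpo, an actin-associated gene (-0.73 and -0.24, limma adjusted p = 0.722), were dimmer. Averaged over each gene's probes, Synpo gave -0.30 and -0.15, and Prkca 0.006 and 0.186.

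Pdlim3 and Ldb3 are also genes of striated muscle, so markers of other cells in the dissected tissue are given beside them. Of 15 skeletal muscle markers, 13 were tested: 3 were brighter on both arrays, 7 were dimmer on both and 3 changed sign, with a median of -0.16. Their summed processed signal was 2933 and 3113 in the channels labelled Smad4cKO, against 2995 and 3762 in those labelled control. The sums given here and below follow the brightest probes most, and probes of different genes are not comparable in level. Named after their values were seen, the lineage factor genes Myog, Myod1 and Myf6 gave -0.80 and -0.45, -0.24 and -0.09, and 0.08 and 0.17. Signals were low for Myod1 (62.1 to 92.4) and Myf6 (42.5 to 69.4). The embryonic myosin gene Myh3 gave -0.71 and -0.73, the skeletal actin gene Acta1 0.44 and 0.38, and the troponin gene Tnnt3 0.34 and 0.03. The other markers dimmer on both arrays were Chrna1 (-0.33 and -0.42), Ttn (-0.23 and -0.51), Neb (-0.29 and -0.29) and Myh8 (-0.05 and -0.47). Their signals were low as well, from 41.22 for Neb to 197.5 for Ttn. Myf5 and Ckm missed the filter on dim probes. Of 9 cardiac markers 6 were tested, with a median of 0.0070 and summed signals of 2203 and 2417 in the channels labelled Smad4cKO, against 1853 and 2655 in those labelled control. Of 15 neuronal and glial markers 14 were dimmer on both arrays, with a median of -0.61 and summed signals of 11740 and 13660 in the channels labelled Smad4cKO, against 18580 and 17150 in those labelled control. Of 5 ureteric mesenchyme markers 4 were brighter on both arrays (median 0.40). Among the 4 was Tbx18, which carries the Cre allele and so differs between the genotypes. The summed signals were 90350 and 90590 in the channels labelled Smad4cKO, against 65190 and 70490 in those labelled control. Tcf21 held the largest part of each sum, with 49670 and 39300 against 24490 and 34680. Of 8 endothelial markers 4 were brighter on both arrays and 0 dimmer (median 0.14), and of 9 macrophage markers 3 were brighter and 0 dimmer (median 0.18). Of 12 urothelial markers 4 were brighter and 2 dimmer (median 0.05), and of 8 erythroid markers 0 were brighter and 4 dimmer (median -0.07). The part of these cells in the ratios of Pdlim3 and Csrp1 was not tested.

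Promoter windows from 250 bases before to 50 after a gene's start were taken from RefSeq (build GRCm38.p6) for 8 of the 10 members, 12 windows of 300 bases in all, without Pdlim2 and Csrp2. The motifs searched on both strands were the CArG box, to which SRF binds, CATTCC, the MCAT element of TEAD factors, GTCTAGAC, GGCGCC and CAGACA, letters bound by SMADs, and TATAAA, and a match on both strands was counted once. The windows of Ldb3 and Fhl2 held a CArG box, found in 1.63% of all 32851 windows, and those of the other 6 members held none. Ldb3 and Fhl2 are shown for that match and Pdlim3 for its ratio, on the gene's strand with matches in capitals.
Pdlim3, chr8:45885237-45885536, plus strand: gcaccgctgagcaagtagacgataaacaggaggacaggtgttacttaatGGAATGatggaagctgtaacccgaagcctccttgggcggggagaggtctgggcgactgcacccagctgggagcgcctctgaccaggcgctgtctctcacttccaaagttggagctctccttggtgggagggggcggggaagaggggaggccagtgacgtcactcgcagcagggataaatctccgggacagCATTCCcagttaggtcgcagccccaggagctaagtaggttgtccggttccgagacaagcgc
Ldb3, chr14:34588632-34588931, minus strand: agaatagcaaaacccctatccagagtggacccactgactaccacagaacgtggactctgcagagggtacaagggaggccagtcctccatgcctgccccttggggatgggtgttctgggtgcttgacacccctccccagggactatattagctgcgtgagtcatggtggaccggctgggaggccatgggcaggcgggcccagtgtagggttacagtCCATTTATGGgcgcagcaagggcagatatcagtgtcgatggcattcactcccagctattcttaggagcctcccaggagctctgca
Fhl2, chr1:43163912-43164211, minus strand: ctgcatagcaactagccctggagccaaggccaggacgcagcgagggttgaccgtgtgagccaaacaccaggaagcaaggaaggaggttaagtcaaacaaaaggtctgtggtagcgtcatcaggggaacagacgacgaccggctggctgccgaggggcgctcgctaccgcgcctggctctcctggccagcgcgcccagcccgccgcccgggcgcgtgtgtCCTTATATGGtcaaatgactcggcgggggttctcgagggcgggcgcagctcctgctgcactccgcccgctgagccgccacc
The CArG box lies at -35 to -26 from the start used for Ldb3 and at -31 to -22 from that for Fhl2, and another Fhl2 window, chr1:43196712-43197011, had a further one at -96 to -87. The 2 windows of Ldb3 overlap and share their match. Pdlim3 held CATTCC at -201 to -196 on the opposite strand and at -11 to -6 on its own strand, with no overlap, and 14.7% of all windows hold these letters. Pdlim4 held CAGACA in 2 places (21% of windows), TATAAA was found in a window of Pdlim5 and one of Fhl2 (13.6%), and the windows of Pdlim1, Pdlim7 and Csrp1 held no match. GTCTAGAC (0.213% of windows) and GGCGCC (11.9%) were found in no window of the members. Only exact matches within these 300-base windows were searched. Whether a CArG box bears on the ratios of the members was not tested. Of the 11 smooth muscle contractile genes with a window, 1 (Myl9) held a CArG box.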

How the data were processed

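Each array gave 1 ratio per gene, and the 2 arrays are the replicates. P-values measure the spread between these 2 ratios, pooled over genes, and nothing says that the RNAs came from separate litters. Per the submitters' processing notes, Agilent Feature Extraction 10.7.3.1 read the scans. The scanner files hold, per the file headers, the mean, background and processed intensity of each spot. Their processed intensity was background-subtracted and dye-normalized, per the file headers. Per the file headers, that software also wrote a log10 ratio of red over green with a p-value. The authors' deposited value table holds signed folds, stored here as a score; its direction was found by setting it against the processed signals, and its values are linear folds, negative where the ratio is inverted, with a median of 1 on each array. Which direction was meant is unknown.

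Mean signals were corrected with normexp (offset 50) and normalized by loess within each array (limma 3.58.1, R 4.3.3). Control spots (1377 of 44397) and outlier spots (237 and 221) were left out. The filter on dim probes kept those well above background in each array's channel of at least 1 labelled group (26669 of 39429), and the brightest stood for a gene. Accessions of 26412 probes matched RefSeq symbols (GRCm38.p6). The log2 ratios were tested against 0 with lmFit and eBayes and Benjamini-Hochberg adjustment over 21237 genes (threshold 0.05), with 1 residual and 4.89 prior degrees of freedom. SE is limma's. The 1.5-fold rule has no p-value, since 2 arrays allow none below 0.5. The fit was tested on simulated data.

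The members and lists were chosen with earlier results of these data known. All 10 members are named, as are Smad4, Tbx18 and, per list, up to 4 genes a direction with 1 sign on both arrays, ordered by the smaller ratio. The number of arrays limits the precision. The 13 alternatives tried are given in the closing section.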

Additional observations from a re-analysis of the deposited data

Results flagged for a closer look

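The labelled Smad4cKO over control ratio had opposite signs in the female pair and the male pair for 6 members after loess. This difference between pairs was not tested, since each sex has 1 array and the dyes were exchanged with it, and 60.3% of all genes tested also changed sign. The log2 ratio of the male pair minus that of the female pair was -0.73 for Pdlim1, -0.53 for Pdlim4 and -0.31 for Pdlim2. It was 0.44 for Ldb3, 0.42 for Pdlim5 and 0.35 for Fhl2. With median centring only Pdlim5 (0.68) and Fhl2 (0.60) of these still had opposite signs, and the difference was 0.19 for Pdlim1, 0.14 for Pdlim4, 0.25 for Pdlim2 and 0.25 for Ldb3, so that it turned its sign for Pdlim1, Pdlim2 and Pdlim4. Sex, dye and array cannot be told apart here.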

How the results depend on the processing

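Over the 11 alternatives that kept both arrays, the mean ratio of each of the 10 members kept its sign. Pdlim3 lay between -0.69 and -0.66 and Csrp1 between 0.54 and 0.57. Settings that changed only the filter, the outlier spots, the empirical Bayes step or the replicate block left every member's ratios as they were. No sign could change in those settings. Averaging a gene's probes could alter only the members with more than 1 probe. Members past limma numbered 0 except for Pdlim3 dimmer, 1 member, in the robust fit that follows intensity. On all genes limma called 0 brighter and 1 dimmer, against 35 and 31 with normexp offset 10, 143 and 160 from processed signals, 71 and 77 from the authors' value table, 298 and 407 in that robust fit, 1 and 3 above background in both channels, 13 and 19 with no replicate block, and 0 and 0 with median centring, after averaging each gene's probes, and on keeping outlier spots. The channels of an array are paired by construction; with no replicate block the limma adjusted p was 0.173 for Pdlim3 and 0.478 for Csrp1. Median centring shifted the median of all genes to -0.12 on array 1 and 0.12 on array 2, and 5 members then changed sign between arrays (2 of the 6 that did so after loess, and Csrp1, Csrp2 and Pdlim7); it left 0 other LIM domain genes brighter at 1.5-fold. Limma's counts over all genes stayed at 0 brighter and 1 dimmer without background subtraction, and likewise with no filter on dim probes. Genes past 1.5-fold numbered 104 (brighter) and 111 (dimmer), but 184 and 199 from processed signals and 177 and 184 from the authors' value table. In the robust fit, limma called brighter 2 other LIM domain genes (Lmcd1 and Fhl1), 2 partners (Myocd and Actn3) and 6 smooth muscle genes. It called 2 partners dimmer (Synpo and Actn2, the latter of low signal). From processed signals and from the authors' value table, 1 partner was dimmer at 1.5-fold and 1 brighter by limma, and limma called 6 and 5 smooth muscle genes brighter. Limma called 3 of them with normexp offset 10, 1 above background in both channels and 3 with no replicate block. The median of partners was -0.019 after averaging each gene's probes. Taken alone, array 1 gave medians of 0.044 for the members, 0.068 for other LIM genes, -0.026 for partners and 0.33 for smooth muscle genes. Array 2 alone gave 0.135, 0.034, -0.047 and 0.53 in the same order. The members' ratios largest in size were 0.51 for Pdlim4 and -0.49 for Pdlim3 on array 1. On array 2 they were -0.87 for Pdlim3, 0.81 for Csrp1 and -0.64 for Pdlim1. The cause of these shifts was not tested. Ldb3 had the lowest signal over background of the members, and its mean ranged from 0.13 to 0.39.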
